A study of Mus musculus with 8 samples.

Results

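The 10 mouse genes described here set how much mitochondrial machinery a cell builds, and were measured in hearts of homozygous Pus1 mutants and of wild-type mice. They are the coactivators Ppargc1a and Ppargc1b, the nuclear receptors Esrra and Esrrg, and the transcription factors Nrf1 and Gabpa. The others are the proteins Tfam, Tfb2m and Polrmt that transcribe mitochondrial DNA, and Tfb1m, a relative of Tfb2m. The 10 genes were chosen by name as a known pathway, with earlier results of these data known. Every array probe whose accession belongs to any of them was taken, which gave 17 of 55681 probes. All 10 were measured, among 13711 named genes in all, by 15 probes that passed a filter on dim signals.

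The study compared 4 homozygous Pus1 mutant hearts with 4 wild-type hearts, each from a separate mouse, on 4 Agilent 2-colour arrays. Both genotypes were C57BL/6J with 5 backcross generations and aged 14 to 16 weeks, and each RNA came from a portion of atrium and ventricle. The labels do not describe the Pus1 allele. Arrays 1 and 2 each held a mutant female and a wild-type female, and arrays 3 and 4 a mutant male and a wild-type male. The mutant carried the red dye Cy5 on arrays 1 and 3 and the green dye Cy3 on arrays 2 and 4, so replicate numbers are array numbers in what follows.

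PGC-1 alpha and PGC-1 beta, the proteins of Ppargc1a and Ppargc1b, do not bind DNA themselves but dock on receptors such as the estrogen-related receptors and on NRF-1 and GABP, and switch on nuclear genes for the respiratory chain. One such gene, Tfam, packages mitochondrial DNA and, with Tfb2m and the RNA polymerase Polrmt, starts its transcription. In heart, which runs largely on fatty acid oxidation, this chain is known for keeping mitochondrial content high. Pus1 is an enzyme that turns uridine into pseudouridine, mainly in transfer RNA, both inside and outside mitochondria. In people its loss causes a myopathy with anaemia.

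Promoter sequences of 9 of the 10 genes could be matched in RefSeq (GRCm38.p6), in 13 windows that run from 250 bases before to 30 bases after an annotated start. Windows of 5 genes are given because they stand at successive steps of the pathway: the coactivator at its head, the factor Gabpa, and 3 genes of the mitochondrial transcription machinery. Capitals mark matches, on either strand, to 3 letter patterns. These are the NRF-1 consensus, searched in 2 spellings of which 1 is a palindrome, a shorter core, GCATGCGC, and CCGGAAG for ETS factors such as GABP. The core was chosen after the sequences were seen.
Ppargc1a, chr5:51567696-51567975, minus strand: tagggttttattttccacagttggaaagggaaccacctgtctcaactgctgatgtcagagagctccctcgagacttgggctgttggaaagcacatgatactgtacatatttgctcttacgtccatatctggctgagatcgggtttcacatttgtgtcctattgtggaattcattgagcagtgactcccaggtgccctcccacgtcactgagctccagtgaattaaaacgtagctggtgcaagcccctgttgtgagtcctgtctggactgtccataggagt
Gabpa, chr16:84834874-84835153, plus strand: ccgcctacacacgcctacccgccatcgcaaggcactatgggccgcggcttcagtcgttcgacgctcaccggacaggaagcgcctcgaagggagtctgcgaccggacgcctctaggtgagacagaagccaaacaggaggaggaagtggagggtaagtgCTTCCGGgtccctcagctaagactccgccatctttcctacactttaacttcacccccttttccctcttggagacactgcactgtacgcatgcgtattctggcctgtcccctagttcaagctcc
Tfam, chr10:71238015-71238294, minus strand: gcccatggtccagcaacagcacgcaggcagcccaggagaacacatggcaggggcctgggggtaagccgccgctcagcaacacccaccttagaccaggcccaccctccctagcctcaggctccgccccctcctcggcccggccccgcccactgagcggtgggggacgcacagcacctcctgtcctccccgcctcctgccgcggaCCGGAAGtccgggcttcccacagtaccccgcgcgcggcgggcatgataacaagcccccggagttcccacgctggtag
Tfb2m, chr1:179546247-179546526, minus strand: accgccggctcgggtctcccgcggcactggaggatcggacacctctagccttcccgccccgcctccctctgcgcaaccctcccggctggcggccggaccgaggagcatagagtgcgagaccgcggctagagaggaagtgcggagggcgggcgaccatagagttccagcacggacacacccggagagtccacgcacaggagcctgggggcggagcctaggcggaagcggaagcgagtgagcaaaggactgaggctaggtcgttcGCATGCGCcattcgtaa
Polrmt, chr10:79746552-79746831, minus strand: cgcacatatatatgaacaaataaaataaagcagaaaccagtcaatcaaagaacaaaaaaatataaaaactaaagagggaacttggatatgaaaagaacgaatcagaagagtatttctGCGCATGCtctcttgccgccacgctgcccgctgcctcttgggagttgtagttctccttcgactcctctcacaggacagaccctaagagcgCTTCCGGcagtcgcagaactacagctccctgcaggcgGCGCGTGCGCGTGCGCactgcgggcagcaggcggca

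The NRF-1 consensus was found in 1 of the 13 windows, that of Polrmt, as 2 overlapping matches to the spelling that is not a palindrome. They began at bases 245 and 251 of the window, counted from its 5′ end. Over all 32851 promoter windows of the table, 2.167% held it. The core lay at base 217 in Esrra, 264 in Tfb2m and 118 in Polrmt. The ETS pattern was found in 3 of the 13 windows, at base 158 in Gabpa, 204 in Tfam and 208 in Polrmt, against 8.447% of all windows. The core site of the estrogen-related receptors, AAGGTCA, and the cyclic-AMP element TGACGTCA were found in 0 of the 13 windows, against 4.46% and 1.741% of all windows. The Ppargc1a window held none of the 5 patterns. These matches describe letters only and were not measured as bound sites.

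The targeted gene was lower in every mutant than in every wild-type heart. Pus1, read by 1 probe, had normalized log2 intensities of 7.07, 7.56, 7.24 and 7.13 in the mutants, against 9.22, 9.23, 8.92 and 9.01 in the wild types. Its log2 ratio, mutant over wild type within an array, averaged -1.85 (SE 0.13, n = 4 arrays), a 3.61-fold lower signal. It was -2.83 with the processed signals and -2.84 with the authors' deposited matrix values. With limma the adjusted p was 1.00 in the fit with a genotype and a dye term over 21823 features. The unadjusted p of Pus1 in that limma fit was 7.67e-05, and 0 of the 21823 features passed. The adjusted p was 0.0241 after median centring, 0.0286 without the array as block and 0.0278 where the array was a random block. With a genotype by sex term it was 0.00584.

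Feature Extraction called 44.7% to 54.6% of probes well above background in mutants and 46.3% to 53.8% in wild types. Log2 ratios of different arrays did not all run together across all features, and some pairs ran against each other. Pearson's r between arrays was lowest at -0.69 for arrays 2 and 3, and was -0.49 for arrays 1 and 4. It was -0.32 for arrays 1 and 3, which share a dye orientation, and -0.16 for arrays 2 and 4, which also do. The female pair had an r of 0.03 and the male pair 0.31. The direction of each ratio was kept as the labels state the dyes, and on each array Pus1 was lower in the mutant. Muscle content was checked with 10 cardiomyocyte markers, all measured, whose mean log2 level was 16.35 to 16.93 in mutants and 16.55 to 16.91 in wild types. Among 9 of 10 atrial markers measured, the mean level was 9.07 to 12.85 in mutants and 8.86 to 11.99 in wild types, so pieces differed in atrial signal. In such bulk tissue, fewer cells of a type and less RNA per cell cannot be told apart.

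None of the 10 regulators passed the test between genotypes (0 of 10 at an adjusted p under 0.05 with limma, against 0% of 21823 features, and 0 of 10 at an unadjusted p under 0.05, against 1.03%). For all 10 genes the levels in mutants overlapped those in wild types, where mutants lay wholly below wild types for 0.358% of features and wholly above for 0.349%. The mean log2 ratios ran from -0.22 for Ppargc1a to 0.16 for Tfam, with a median of -0.02 over the 10 genes and -0.01 over all features. The 95% intervals of the 10 genes together spanned -0.50 to 0.69, that is from 0.706-fold to 1.61-fold, and single genes had narrower ones, given with each gene below. By sign, 4 mean ratios were positive and 6 negative, but 9 positive and 1 negative under median centring, where the median over all features was 0.081. All adjusted p-values of the 10 genes were 1.00. Pus1 did not pass in this fit either, so its adjusted p-values do not separate a gene changed like Pus1 from an unchanged one.

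**Figure D1:**
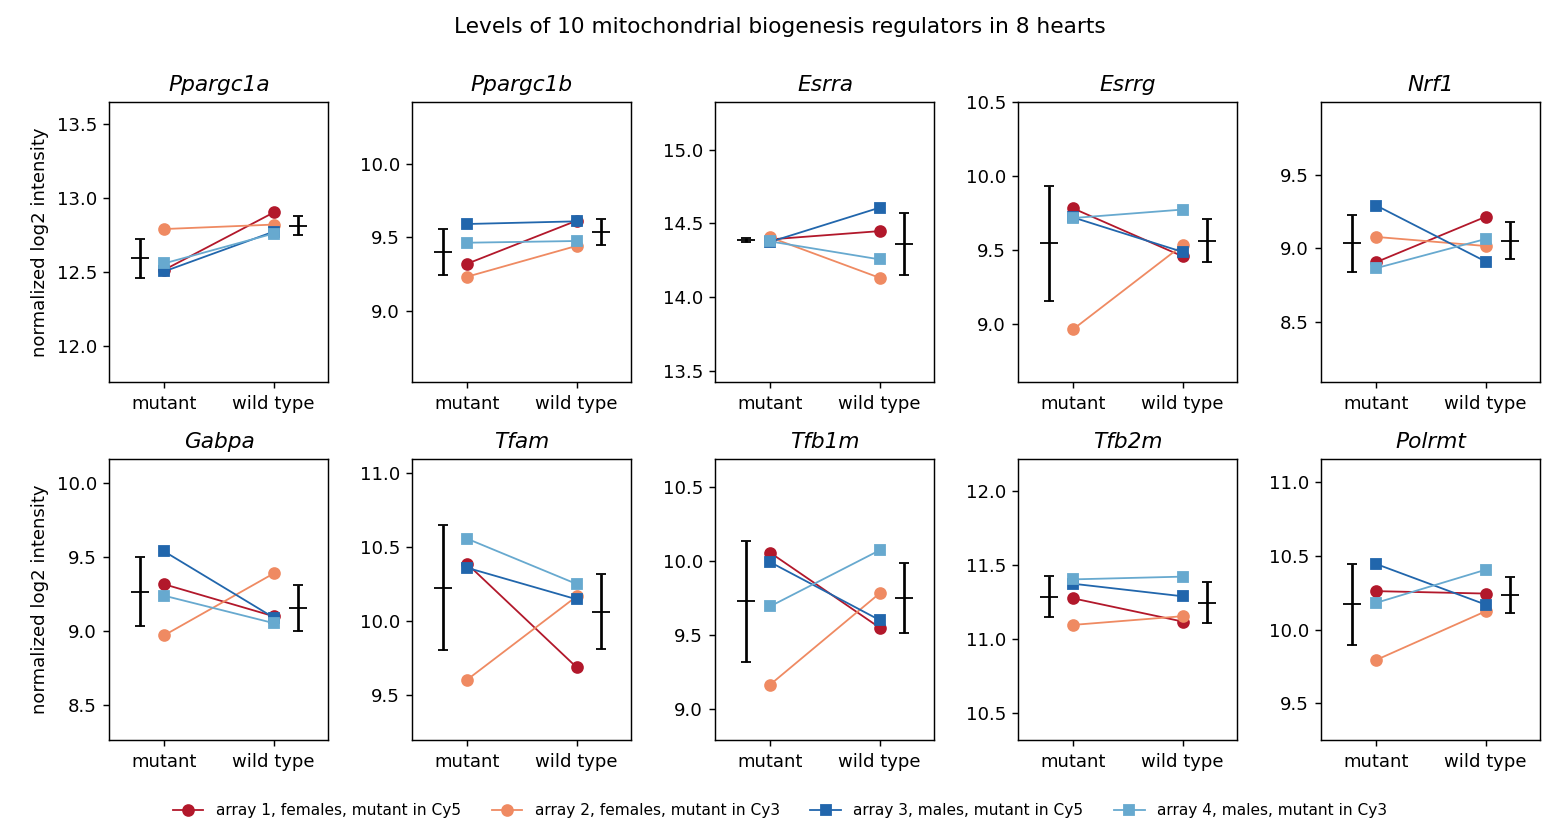
Normalized log2 intensity of the 10 regulators (vertical axis, 1 panel per gene, each spanning the same number of log2 units) in the 4 mutant and the 4 wild-type hearts. Lines join the 2 hearts of an array, and the black bars beside the points are the mean and SD of each genotype (n = 4); the 2 genotypes overlap in every panel.

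Ppargc1a, the coactivator at the head of the pathway, had the mean ratio farthest from 0 of the 10 regulators. Its brighter probe read 12.51, 12.79, 12.50 and 12.56 in the mutants, against 12.90, 12.82, 12.77 and 12.76 in the wild types. The other 3 mutants lay below every wild type, while mutant replicate 2 lay between wild types. The ratio was below 0 on every array, at -0.39, -0.03, -0.27 and -0.20, with a mean of -0.22 (SE 0.10, 95% interval -0.50 to 0.06). Its mean stayed below 0 under all 16 alternative settings, between -0.27 and -0.09, and the lowest adjusted p among them was 0.994. Many of these settings could not have changed the sign. With every ratio below 0, leaving out an array had to give a negative mean. Settings that changed only the filter or the model terms left the mean as it was.

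The second, dimmer Ppargc1a probe gave a different array pattern. Its ratios were -0.05, -0.57, 0.01 and 0.00, with a mean of -0.15 (SE 0.14). Array 2, where the brighter probe differed least, was the one on which the dimmer probe was lowest. The Ppargc1a gene lies on chromosome 5, as Pus1 does.

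Ppargc1b, the second coactivator, is on chromosome 18 and had 1 probe. It read 9.32, 9.23, 9.59 and 9.47 in the mutants, against 9.61, 9.44, 9.61 and 9.48 in the wild types. Its ratios of -0.29, -0.21, -0.02 and -0.01 were below 0 on every array, and its mean was -0.13 (SE 0.11, 95% interval -0.44 to 0.17), which turned to 0.0086 under median centring. Nearly all of the difference was on the 2 female arrays. Ppargc1a and Ppargc1b were the 2 of 10 genes with a negative ratio on all 4 arrays, which 2.55% of all features also had, and 0 of 10 were positive on all 4, against 2.34%.

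Esrra, the estrogen-related receptor alpha and a main partner of the coactivators in heart, was almost the same in all mutants. It read 14.39, 14.41, 14.38 and 14.38 in the mutants (SD 0.01), against 14.45, 14.13, 14.61 and 14.26 in the wild types (SD 0.21). Every mutant lay inside the range of the wild types. The ratios of -0.06, 0.27, -0.23 and 0.12 averaged 0.03 (SE 0.11, 95% interval -0.26 to 0.31), and leaving out array 1 or array 2 gave -0.017 and -0.011.

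Esrrg, the gamma receptor that is abundant in oxidative muscle, differed mostly on array 2. It read 9.78, 8.96, 9.72 and 9.72 in the mutants, against 9.46, 9.53, 9.49 and 9.77 in the wild types. Mutant replicate 2 was the lowest of all 8 hearts, and each of the other 3 mutants lay above at least 3 of the 4 wild types. The ratios were 0.32, -0.57, 0.23 and -0.06, with a mean of -0.02 (SE 0.13, 95% interval -0.37 to 0.34), which was 0.11 without array 2. A second Esrrg probe repeated the pattern at 0.42, -0.53, 0.44 and 0.05, with a mean of 0.10 (SE 0.14).

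Nrf1, nuclear respiratory factor 1, had no common direction. Its 1 probe that passed the filter read 8.91, 9.08, 9.29 and 8.87 in the mutants, against 9.21, 9.02, 8.91 and 9.06 in the wild types. The highest and the lowest heart were both mutants. The ratios of -0.31, 0.06, 0.38 and -0.20 averaged -0.02 (SE 0.16, 95% interval -0.44 to 0.41). The other 2 Nrf1 probes were well above background in 1 of 8 samples each and were left out.

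Gabpa encodes the DNA-binding subunit of GABP, also called NRF-2. It read 9.32, 8.97, 9.54 and 9.24 in the mutants, against 9.10, 9.39, 9.09 and 9.05 in the wild types. On arrays 1, 3 and 4 the mutant was higher, and on array 2 it was lower. The ratios of 0.22, -0.42, 0.45 and 0.19 averaged 0.11 (SE 0.15, 95% interval -0.28 to 0.50), and a second probe gave 0.02, -0.38, 0.25 and 0.24. Without array 4 the mean was -0.043.

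**Figure D2:**
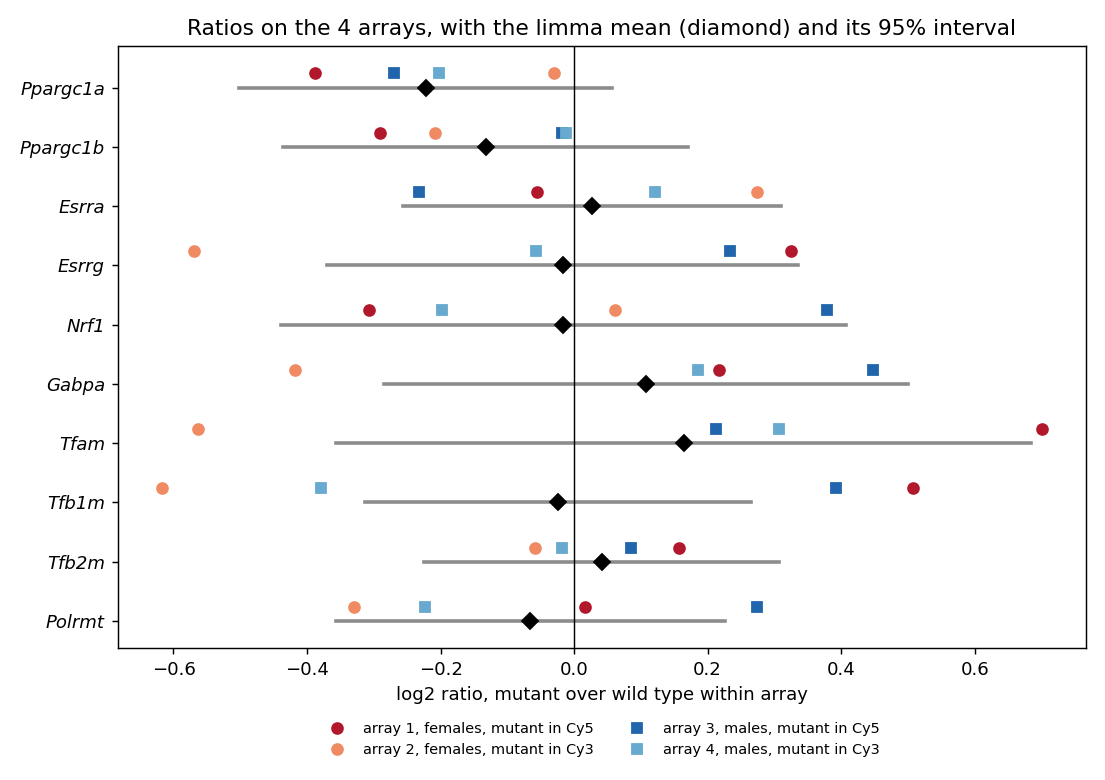
Log2 ratio of mutant over wild type on each of the 4 arrays (points, horizontal axis) for the 10 regulators (rows), with the limma mean as a diamond and its 95% interval as a bar. Every interval crosses 0; the ratios of Ppargc1a and Ppargc1b alone sit on 1 side of 0, and array 2 gives the lowest ratio for Esrrg, Gabpa, Tfam, Tfb1m, Tfb2m and Polrmt.

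Tfam, the packaging protein of mitochondrial DNA, had mutants on both sides of the wild-type range. It read 10.38, 9.60, 10.36 and 10.55 in the mutants, against 9.68, 10.16, 10.14 and 10.25 in the wild types. Mutant replicate 2 lay below every wild type, and the other 3 mutants lay above every wild type. The ratios were 0.70, -0.56, 0.21 and 0.31, and their mean was 0.16 (SE 0.20, 95% interval -0.36 to 0.69). Leaving out 1 array at a time moved the mean between -0.054 and 0.38, the higher value without array 2.

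All 3 Tfam probes passed the filter, and each was lower in the mutant on array 2. The second probe gave ratios of 0.47, -0.61, 0.08 and 0.47. The third, well above background in 4 of 8 samples, gave 0.45, -0.48, 0.58 and -0.07. Separate probes of 1 transcript therefore shared the array 2 value, and they parted on array 4.

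**Figure D3:**
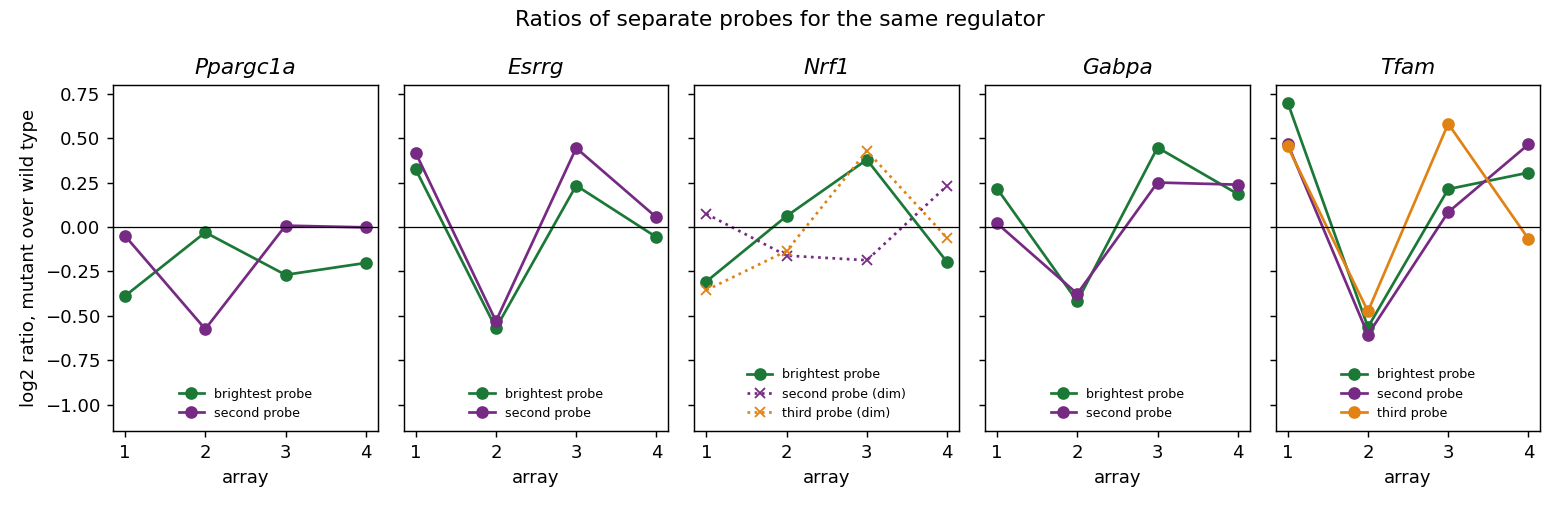
Log2 ratio of mutant over wild type (vertical axis) on arrays 1 to 4 (horizontal axis) for each probe of the 5 regulators that have several probes, with dotted lines and crosses for the 2 dim Nrf1 probes. The probes of Esrrg, Gabpa and Tfam all dip on array 2, between -0.61 and -0.38, while the 2 probes of Ppargc1a part there.

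Tfb2m, the factor that opens mitochondrial promoters for the polymerase, varied least from array to array. It read 11.28, 11.10, 11.37 and 11.40 in the mutants (SD 0.14), against 11.12, 11.15, 11.29 and 11.42 in the wild types (SD 0.14). The 4 ratios of 0.16, -0.06, 0.08 and -0.02 averaged 0.04 (SE 0.10, 95% interval -0.22 to 0.31). Its ratio SD was 0.10, the smallest of the 10 genes.

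Tfb1m, a relative of Tfb2m that methylates the small mitochondrial ribosomal RNA, split by dye orientation. It read 10.06, 9.17, 9.99 and 9.70 in the mutants, against 9.55, 9.78, 9.60 and 10.07 in the wild types. The mutant was higher on both arrays where it carried Cy5, at 0.51 and 0.39, and lower on both where it carried Cy3, at -0.62 and -0.38. The mean ratio was -0.02 (SE 0.11, 95% interval -0.31 to 0.26). Its dye coefficient in the fit was 0.47 (SE 0.11, adjusted p 0.454 with limma).

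Polrmt, the mitochondrial RNA polymerase, had the same split by dye in a milder form. It read 10.26, 9.79, 10.44 and 10.18 in the mutants, against 10.24, 10.12, 10.17 and 10.41 in the wild types. Its ratios were 0.02 and 0.27 with the mutant in Cy5, and -0.33 and -0.22 with the mutant in Cy3. The mean was -0.07 (SE 0.11, 95% interval -0.36 to 0.23). Under median centring the means of Tfb1m and Polrmt were 0.12 and 0.084.

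Ratios of the regulators differed from array to array. The mutant was lower for 4 of 10 genes on array 1, 8 on array 2, 3 on array 3 and 7 on array 4. Median ratios over the 10 genes were 0.09, -0.27, 0.22 and -0.04 on arrays 1 to 4, against 0.04, 0.02, -0.03 and -0.01 over all features. Both ratios with the mutant in Cy5 lay above both with it in Cy3 for 5 of 10 genes, against 21.6% of features. These were Esrrg, Gabpa, Tfb1m, Tfb2m and Polrmt. For 2 of 10, Ppargc1a and Esrra, both lay below, against 21.8% of features. Cy5 was the brighter dye for 7 of 10 genes by the dye coefficient, against 46.8% of features, and Tfb1m alone had an unadjusted dye p under 0.05 in limma (1 of 10, against 9.87% of features); the adjusted count was 0 of 21823. The ratio SD over the 4 arrays was 0.10 to 0.56 for the 10 genes, with a median of 0.29 beside 0.31 over all features.

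**Figure D4:**
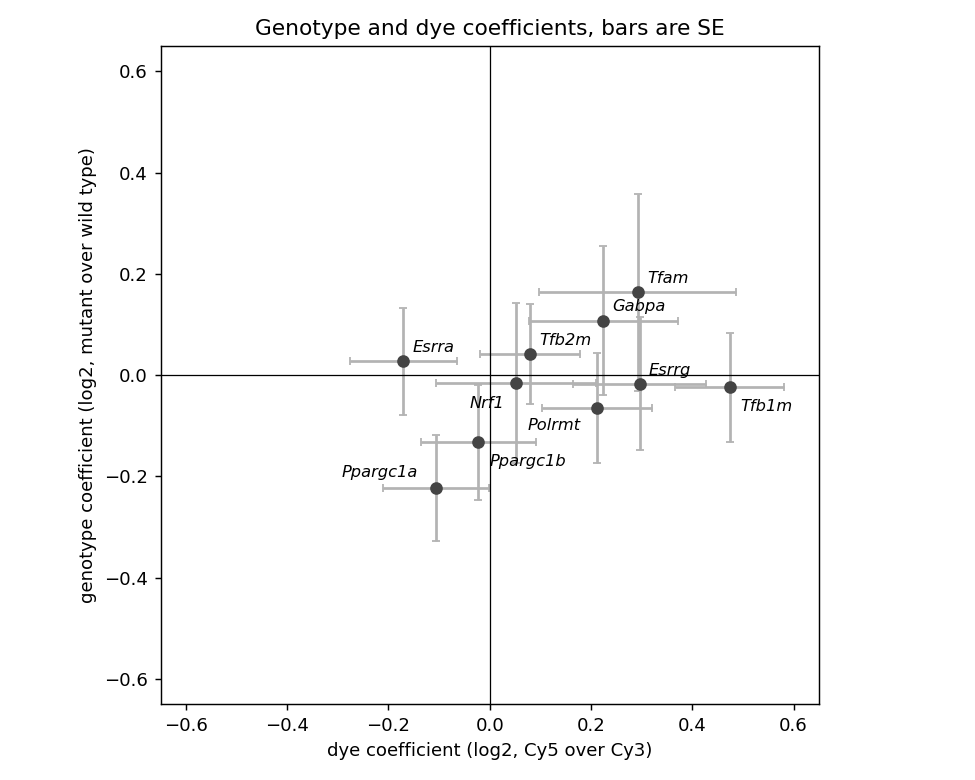
Genotype coefficient (vertical axis, log2 of mutant over wild type) against dye coefficient (horizontal axis, log2 of Cy5 over Cy3) of the 10 regulators from the limma fit, with SE bars. Genotype coefficients lie between -0.22 and 0.16, while dye coefficients reach 0.47 for Tfb1m.

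The genotype difference was also compared between sexes, for which each sex had 2 arrays of opposite dye orientation. None of the 10 genes passed the test of this difference (0 of 10 at an adjusted p under 0.05 with limma, against 9.31% of features). Females minus males, the differences ran from -0.42 for Gabpa (SE 0.26, adjusted p 0.579) to 0.16 for Esrra (SE 0.26), and the intervals spanned -1.01 to 0.74. Gabpa averaged -0.10 in females and 0.32 in males, and Ppargc1b averaged -0.25 in females and -0.015 in males. Both female ratios lay below both male ratios for 1 of 10 genes, Ppargc1b, against 14.9% of features, and above for 0 of 10, against 22.6%. Within a sex, 0 of 10 genes passed in females, against 0.00916% of features, and 0 of 10 in males, against 3.34%. The 2031 features that differed between sexes were 0 under 5 of the 10 alternative settings, so that background itself depended on the processing.

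Genes that act with or above the regulators were described from a list of 39, of which 38 were measured. Of the 38, 14 mean ratios were positive and 24 negative, 0 passed the test between genotypes and the median was -0.02, beside -0.01 over all features. Pparg, a receptor that PGC-1 alpha was first found to bind, read 9.99, 10.26, 10.23 and 10.23 in the mutants, against 10.42, 10.30, 10.34 and 10.45 in the wild types. Its mean ratio was -0.20 (SE 0.12). All mutants lay below all wild types for 2 of the 38 genes, Pparg and Rxra, against 0.358% of features. Rxra, the dimer partner of Pparg, read 7.23, 7.28, 7.28 and 6.92 in the mutants, against 7.38, 7.31, 7.34 and 7.35 in the wild types. Next by smallest p came Rxra at -0.17 (SE 0.12) and Ncoa1, a steroid receptor coactivator, at -0.13 (SE 0.10). Prkaa2, a catalytic subunit of the energy sensor AMPK, followed at -0.12 (SE 0.10). These 4 genes were negative on all 4 arrays, 4 of 38 against 2.55% of features, and Ncoa1 and Prkaa2 turned to 0.0083 and 0.021 under median centring.

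By sex, 2 of the 38 partners passed the test, against 9.31% of features, both higher in females than in males, as were 2005 of the 2031 features that did. Mef2a, a cardiac transcription factor that acts on the Ppargc1a promoter, had ratios of 1.17 and 0.83 in females and -1.05 and -0.36 in males. The difference was 1.71 (SE 0.31, adjusted p 0.00796 with limma). Med1, the Mediator subunit through which nuclear receptors and PGC-1 alpha reach the polymerase, had ratios of 0.26 and 0.75 in females and -1.08 and -0.24 in males, a difference of 1.16 (SE 0.26, adjusted p 0.0228). Averaged over their probes the differences were 0.59 (adjusted p 0.296) for Mef2a and 0.15 (adjusted p 0.875) for Med1, so the probes of these genes disagreed. Over the 10 alternative settings the adjusted p ran from 0.00331 to 0.296 for Mef2a and from 0.0130 to 0.875 for Med1, and each passed under 4 of them. Creb1 at -0.57 and the AMPK subunit Prkag1 at 0.54 did not pass.

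Mitochondrial DNA maintenance, which works beside Tfam and Polrmt, was read by 25 of 27 listed genes. Of the 25, 16 were positive, 9 negative and 0 passed, with a median of 0.01. The smallest p-values belonged to Tk2, the mitochondrial thymidine kinase, at 0.19 (SE 0.11), the pyrimidine nucleotide carrier Slc25a33 at -0.27 (SE 0.16), the exonuclease Mgme1 at -0.18 (SE 0.12) and the single-strand binding protein Ssbp1 at 0.18 (SE 0.14). With 1 array left out Slc25a33 ran from -0.44 to -0.10, Mgme1 from -0.26 to -0.088 and Ssbp1 from 0.053 to 0.31, and Ssbp1 turned to -0.030 when its probes were averaged. The largest sex difference named was that of Mpv17, a protein of the mitochondrial inner membrane, at 0.86 (SE 0.26), which did not pass.

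Processing of the RNA that Polrmt makes was read by 20 of 22 listed genes, with 10 positive, 10 negative, 0 passed and a median of 0.00. Elac2, which trims the 3′ ends of mitochondrial transfer RNAs, was at -0.19 (SE 0.12), Ptcd2 at 0.16 (SE 0.10), Angel2 at -0.11 (SE 0.10) and the polynucleotide phosphorylase Pnpt1 at 0.12 (SE 0.12). Angel2 turned to 0.031 under median centring and Pnpt1 to -0.016 when its probes were averaged. Fastkd1, of a family that binds mitochondrial RNA, differed by sex at 1.55 (SE 0.27, adjusted p 0.00692 with limma), with ratios of 0.58 and 0.64 in females and -1.23 and -0.66 in males. Over the 10 alternative settings its adjusted p ran from 0.00275 to 0.311.

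Nuclear genes that textbooks give as targets of the coactivators and their partners were measured for 32 of 32. Of these 19 were positive, 13 negative and 0 passed, with a median of 0.02. Cycs, cytochrome c and a classic NRF-1 target, read 16.54, 15.46, 16.43 and 16.10 in the mutants, against 15.67, 16.00, 16.08 and 15.92 in the wild types, with a mean ratio of 0.22 (SE 0.18), which ran from 0.032 to 0.40 with 1 array left out. Its ratios of 0.87, -0.55, 0.35 and 0.19 had the signs of those of Tfam on each array. Sod2, the superoxide dismutase of the matrix, was at 0.15 (SE 0.14, and 0.035 to 0.27 with 1 array left out), the fusion protein Mfn2 at 0.11 (SE 0.11) and Uqcrc2 of complex III at 0.11 (SE 0.11, and 0.039 to 0.19).

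The targets had the same signs as the regulators on each array. Their median ratios were 0.43, -0.31, 0.19 and -0.11 on arrays 1 to 4, and Cy5 was the brighter dye for 26 of 32, beside 9 of 10 cardiomyocyte markers and 46.8% of all features. Cardiomyocyte markers ran 0.19, -0.29, 0.30 and -0.34 on the same arrays, erythroid markers, 6 of 8 measured, 2.46, -2.30, -0.89 and 0.14, and atrial markers -0.16, 0.50, 0.25 and 1.97. The erythroid markers thus had their highest and lowest medians on arrays 1 and 2, the atrial markers their highest on array 4. The part of these markers in the regulators' values was not tested.

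**Figure D5:**
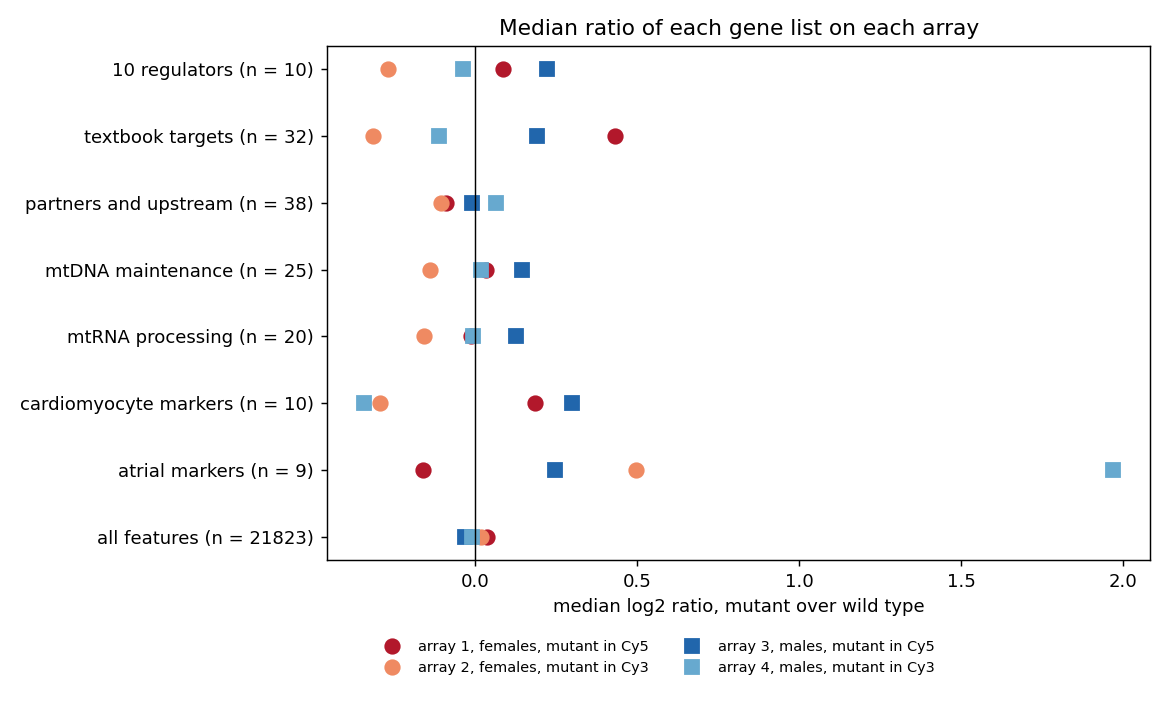
Median log2 ratio of mutant over wild type (horizontal axis) on each of the 4 arrays for the 10 regulators, 4 lists of related genes, 2 marker lists and all features (rows, with the number measured). The regulators, the targets and the cardiomyocyte markers are above 0 on arrays 1 and 3 and below 0 on arrays 2 and 4, while the atrial markers reach 1.97 on array 4.

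Of the 13682 named genes compared over the 8 hearts, those most like Ppargc1a in level were Dtx1 (Pearson's r 0.977, Spearman's rho 0.952), Ccdc163 (0.976 and 0.881) and Tdrd3 (0.956 and 0.929). Those most like Esrra were Limk1 (0.963 and 0.833), Tmem254c (0.947 and 0.810) and Doxl1 (0.942 and 0.905). Those most like Tfam were Rmdn1 (0.978 and 0.905), Cox15 (0.976 and 0.905) and Rpf2 (0.975 and 0.976). An r above 0.9 was reached by 17 genes for Ppargc1a, 13 for Esrra and 119 for Tfam. The 8 points share arrays and dyes in pairs, so these values only describe the hearts measured.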

How the data were processed

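Total RNA of 8 mouse hearts, 100 ng each per the labels, was hybridised on 4 arrays of 62976 spots, 3671 of them controls, on 1 slide. Per the file headers, the authors used version 10.7.3.1 of Agilent Feature Extraction, with a grid annotated on mouse build mm9. The deposited intensity values used were median spot and local background signals, not corrected or normalized, per the file headers. The well-above-background, saturation and non-uniformity flags are the deposited ones of the same program. A table of log2 values, the authors' deposited series matrix, was an alternative. Its Cy5 minus Cy3 difference followed the processed ratios at r 0.991 to 0.998, with slopes of 0.988 to 1.04, which settled its log base and direction. Column medians on arrays 1 to 4 lay at 0.0055, -0.0033, -0.0067 and -0.010 for Cy3. For Cy5 they lay at -0.0017, 0.013, 0.064 and -0.021. How this table was centred is not given in the sources used here.

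With limma 3.58.1 in R 4.3.3, background was corrected by normexp (offset 50) and ratios by loess. Controls and non-uniform spots had weight 0, and non-uniform spots were then missing. Probes well above background in at least 4 of 8 samples were kept (28528 of 55681), and the brightest probe stood for a gene, which gave 21823 features, 13711 of them named. Symbols came from a RefSeq table of GRCm38.p6, which gave 1 symbol to 27656 probes and none to 28025. Log2 ratios were fitted with a genotype and a dye coefficient (2 residual degrees of freedom), or with female, male and dye coefficients (1 residual degree of freedom). All tests were 2-sided, with a threshold of 0.05 on p-values adjusted over all features by Benjamini and Hochberg, and the fits were tested on simulated data. Levels are separate channels after loess and Aquantile normalization, and 4 arrays limit the precision. Counts of features on 1 side rest on the 21781 features measured on every array.

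The labels put 1 heart of each genotype on each array, which is the pairing and the block of the main fit. Deviations of paired hearts from their group means correlated at -0.49, -0.11, -0.38 and 0.50 on arrays 1 to 4. With 1 slide there was no batch to test. The regulators and gene lists were chosen with earlier results of these data known. Genes were named by a rule: every regulator with every probe, the 4 measured genes of a list with the smallest p between genotypes and between sexes, the brightest markers, and the 3 genes most like Ppargc1a, Esrra and Tfam. From those, the genes whose values add to the account are given.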

Additional observations from a re-analysis of the deposited data

Results flagged for a closer look

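Among 22 groups of 4 hearts examined for a heart that stands apart, chance alone gives about 1 in 20, and 2 such hearts were seen. Esrrg in mutant replicate 2 had a log2 level of 8.96, far from the other 3 mutants, which read 9.72 to 9.78. Gabpa in wild-type replicate 2 had a log2 level of 9.39, above the other 3 wild types at 9.05 to 9.10. Both hearts were on array 2, and second probes of both genes gave ratios of the same sign there, at -0.53 and -0.38. The second Esrrg probe also read lowest in mutant replicate 2, at 8.77 against 9.42 to 9.69 in the other mutants. The second Gabpa probe read 8.21, 8.08, 8.02 and 7.94 in the wild types, so wild-type replicate 2 did not stand apart there. On that probe mutant replicate 2 was the lowest mutant, at 7.71.

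Of the genes named by the rule, 6, none of them a regulator, passed the limma test of the difference between females and males. Mef2a, Med1 and Fastkd1 were named for their small p in this same test. The count therefore cannot be compared with the 9.31% of all features that passed. The log2 ratio was higher in females than in males by 1.71 for Mef2a, 1.16 for Med1 and 1.55 for Fastkd1. The atrial genes Nppa, atrial natriuretic peptide, and Myl4, the atrial essential light chain, had differences, females minus males, of -1.11 and -2.92, and the adipocyte gene Cfd, adipsin, one of -2.42. Their ratios on arrays 1 to 4 were -0.76, 1.29, 0.79 and 1.97 for Nppa, -1.57, 1.88, 0.38 and 5.77 for Myl4, and -1.05, 0.91, 0.95 and 3.76 for Cfd. Over the 10 alternative settings Nppa passed under 1, with adjusted p from 0.0149 to 0.925, Myl4 under 5 (0.00260 to 0.873) and Cfd under 5 (0.00120 to 0.870). Of the whole marker lists, 4 of 9 atrial genes passed, all lower in females, and 2 of 7 adipocyte genes, 1 higher and 1 lower. For Nppa, Myl4 and Cfd the ratio was highest on array 4, and their part in the other sex differences was not tested.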

How the results depend on the processing

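The 0 of 10 regulators past the test held under all 16 alternatives for genotype and all 10 for sex. The count over all features was 1, Pus1, under median centring, without the replicate block, with a random array block and with a sex term, and 0 in the others, from 0 to 0 with arrays left out. The count for the sex difference, 2031, was 0 with processed signals, matrix values, median centring, no dye term and no replicate block, and 1242 with the filter at all 8 samples. The female count of 2 was 0 with no background correction, processed signals, matrix values, median centring, mean over probes and no dye term, 892 with scale normalization and 419 with the filter at all 8. The male count of 728 was 0 with no background correction, processed signals, matrix values, median centring and no dye term, 2 with mean over probes and 1416 with scale normalization.

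Some log2 ratios changed sign. Under median centring they were 0.13 for Esrrg, 0.11 for Nrf1, 0.12 for Tfb1m, 0.084 for Polrmt, 0.0086 for Ppargc1b, 0.031 for Angel2, 0.11 for Gabpb1, 0.0083 for Ncoa1 and 0.021 for Prkaa2. With mean over probes they were 0.040 for Esrrg, -0.016 for Pnpt1 and -0.030 for Ssbp1. With processed signals they were 0.026 for Esrrg, 0.0052 for Gabpb1 and 0.069 for Pprc1, and with matrix values 0.026, 0.0057 and 0.070 for the same genes. Leaving out 1 array gave -0.017 to 0.071 for Esrra, -0.15 to 0.11 for Esrrg, -0.19 to 0.16 for Nrf1, -0.043 to 0.26 for Gabpa, -0.054 to 0.38 for Tfam, -0.084 to 0.035 for Tfb1m, -0.22 to 0.18 for Pprc1, -0.055 to 0.25 for Esrrb, -0.070 to 0.0082 for Gabpb1 and -0.051 to 0.12 for Gabpb2. Sex differences changed sign for Ppargc1a (-0.14 with mean over probes, -0.45 with median centring, -0.0013 with processed signals, -0.072 with matrix values), for Tfb2m (-0.41 with median centring, -0.072 with processed signals, -0.11 with matrix values) and for Esrra (-0.34 with median centring). The cause was not tested. The sex fit could not be run with an array left out, since no residual degrees of freedom remain. The 2 dim Nrf1 probes were well above background in 1 of 8 samples each, and the third Tfam probe in 4 of 8. The other probes of the regulators were well above it in all 8, and every ratio rests on 4 arrays.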

Other observations

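Close relatives of the regulators, taken by family and outside the rule for named genes, were also measured. Pprc1, the third member of the PGC-1 family, read 6.86, 7.43, 7.48 and 7.16 in the mutants, against 7.40, 7.19, 7.21 and 7.21 in the wild types, with a mean log2 ratio of -0.02 (SE 0.17). Esrrb, the beta receptor, was at 0.10 (SE 0.16), and the GABP partner subunits Gabpb1 and Gabpb2 were at -0.03 (SE 0.10) and 0.03 (SE 0.11). Their 95% intervals together ran from -0.49 to 0.53, and 0 of the 4 passed the test between genotypes with limma.

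Adipocyte markers, of which 7 of 12 were measured and Adipoq, Plin1, Ucp1, Lep and Pck1 were not, had median ratios of -0.39, 0.70, 0.05 and 0.43 on arrays 1 to 4. Endothelial markers had -0.21, 0.19, 0.15 and 0.17, and fibroblast markers 0.16, 0.13, -0.06 and 0.17.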
